A study of Mus musculus with 2 samples.

Results

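The transcripts of 9 genes that mark rod photoreceptors, Sag, Gnat1, Gngt1, Pdc, Pde6g, Prph2, Rom1, Rcvrn and Nrl, were followed through retinal cells that had been sorted as myeloid cells. All 9 symbols, of 27998 genes in the count matrices, were found, each under 1 identifier. The question was how their unique molecular identifiers (UMIs, counted captured molecules) spread over single cells, a little in every cell or much in a few. Free RNA in the suspension and engulfed or attached rod material are both possible sources of such UMIs, and the source was not tested.

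The cells came from male CB6F1 mice aged 8 months with a Cx3cr1-YFP reporter, a strain in which microglia and related macrophages fluoresce; both groups carry it. The light-damaged group was dark-adapted overnight, had its pupils dilated with atropine sulfate and phenylephrine hydrochloride, was lit at 10 klux for 4 h with LED light and was sampled after 5 days of ordinary lighting. The control group is known by its description, no light damage. The treatment protocol text is the same for both samples, so it does not tell whether the control group was dark-adapted or dilated. In each group the retinas of 5 to 8 mice were pooled, digested with collagenase A and DNase I, and live YFP-positive cells were sorted into 1 droplet library read from the 3' end of transcripts. Since each group is 1 library, no test was made, group and library cannot be told apart, and the intervals in brackets are 95% intervals for counting error only. Those for levels and ratios treat each UMI as independent, so they are too narrow where UMIs gather in few cells.

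Rods are the dim-light photoreceptors and the most numerous cells of the mouse retina. In a rod, light acts through the visual pigment on the G protein transducin and then on a cyclic GMP phosphodiesterase, in stacked membrane discs that are shed and renewed. Microglia reside in the neural retina and take up debris, as do macrophages along its vessels, and in retinal degeneration microglia are known to enter the photoreceptor layer and engulf rods. Free RNA from broken rods is also a known source of rod UMIs in droplet libraries of the retina.

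The light-damaged library held 6821 barcodes and 58187149 UMIs, and the control library 4003 barcodes and 20056338 UMIs. The lowest barcode had 3059 UMIs in the light-damaged library and 1227 in the control library, so only the control library held shallow cells. The libraries shared 47 barcode sequences. A filter of 300 or more genes and no more than 10% mitochondrial UMIs left 6799 light-damaged and 3948 control barcodes, with 8075 and 24047 UMIs of the 9 genes.

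Cells were classed by marker sums per 10000 UMIs, so each class is a range cut from a sum. Microglia, with P2ry12, Tmem119, Siglech, Gpr34 and P2ry13 summing to at least 20, numbered 4653 in the light-damaged library and 3497 in the control library. Perivascular macrophages, with Mrc1, F13a1, Cd163, Lyve1 and Cbr2 summing to at least 10, numbered 85 and 53 in the same libraries. Other macrophages, with both sums under 10, numbered 1202 light-damaged and 245 control barcodes. Another 857 light-damaged and 147 control cells lay between the classes, and 2 and 6 met both limits. Perivascular markers had 1897 counts per 1000000 UMIs (CPM) in light-damaged and 1717 in control perivascular macrophages, and 6.62 and 7.62 CPM in microglia. The name did not hold for all other macrophages. The 7 genes of myeloid cells in general that were listed (Tyrobp, Fcer1g, Csf1r, Laptm5, Cd68, Ptprc and Aif1) summed to under 20 per 10000 in 25 light-damaged and 76 control barcodes of the class. Those barcodes carried 2171 of its 3484 rod UMIs in the light-damaged library and 14484 of 15404 in the control library, at 15386 and 46458 CPM. They also held bipolar cell genes at 5223 CPM in the light-damaged and 4199 CPM in the control library, and Müller glia genes at 9440 and 6155 CPM. Endothelial genes were at 59.2 CPM in the whole light-damaged class and 10.9 without these barcodes, and at 463 and 19.2 in the control library. Erythrocyte genes were at 172 CPM in the whole control class and 0 without them. These barcodes are called low-myeloid barcodes here, and results for other macrophages are given for the 1177 light-damaged and 169 control cells without them.

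The members fall into 4 roles. Sag is rod arrestin, which shuts off the activated visual pigment, and Rcvrn is recoverin, a calcium sensor that restrains the kinase acting on that pigment. Gnat1 and Gngt1 are the alpha and gamma subunits of rod transducin, Pdc is phosducin, which binds its beta and gamma subunits, and Pde6g is the inhibitory subunit of the phosphodiesterase. Prph2 and Rom1 are membrane proteins that shape the disc rims. Nrl is the transcription factor that sets rod identity. Their genes lie on 7 chromosomes, and only Sag with Pdc and Pde6g with Rcvrn share one. In GENCODE M21, which uses GRCm38 (mm10) coordinates, Sag spans 87803680 to 87845158 of chromosome 1 on the plus strand and Gngt1 spans 3993792 to 3997436 of chromosome 6 on the plus strand, both as protein-coding genes. No other annotated gene overlaps either of them. Pdc is overlapped by the antisense gene 2310030A07Rik and by Gm37764, and Rcvrn by Glp2r on the other strand, so counts of these members are less certain.

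The promoters of Sag and Gngt1 are shown because the results below set these transcripts against each other. Both are the 250 bases before the start annotated by RefSeq, on GRCm38.p6, plus strand, chr1:87803430-87803679 for Sag and chr6:3993758-3994007 for Gngt1. Capitals mark TAATCC, the core recognised by the photoreceptor factor Crx, and TGCTGA, the half-site of the Maf family to which Nrl belongs, searched on both strands (GGATTA and TCAGCA), with no overlap between matches. GENCODE M21 starts Gngt1 earlier than RefSeq does, so 216 of the 250 bases shown for Gngt1, its match among them, lie inside the gene as GENCODE draws it, against 0 for Sag.
Sag: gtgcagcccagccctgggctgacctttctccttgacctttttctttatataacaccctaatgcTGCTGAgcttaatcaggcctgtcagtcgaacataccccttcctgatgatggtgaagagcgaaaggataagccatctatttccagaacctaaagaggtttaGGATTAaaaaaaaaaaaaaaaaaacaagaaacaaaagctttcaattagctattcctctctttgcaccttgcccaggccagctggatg
Gngt1: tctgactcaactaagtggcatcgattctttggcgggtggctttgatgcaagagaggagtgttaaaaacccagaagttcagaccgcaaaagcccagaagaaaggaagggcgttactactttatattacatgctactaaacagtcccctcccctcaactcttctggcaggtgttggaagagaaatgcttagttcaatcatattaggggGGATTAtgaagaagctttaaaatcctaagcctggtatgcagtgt
Promoters of 6 of the 9 members were found (also Pdc, Prph2, Rom1 and Nrl), and 19 bases of that of Prph2 and all 250 of that of Nrl likewise lie inside the GENCODE gene. TAATCC or its reverse was in 2 of the 6, against 6.25% of 32851 promoters of the same length, and TGCTGA or its reverse was in 1 of the 6, against 16.1%. A match is a run of letters and not a shown binding site.

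In microglia every member was lower in the light-damaged library than in the control library. The 9 members together had 97.5 CPM (94.3 to 101) in light-damaged microglia and 436 (426 to 446) in control microglia, a 4.47-fold lower level (4.29 to 4.66). Among the shut-off proteins, Sag had 27.5 CPM in light-damaged and 88.6 in control microglia, 3.22-fold lower (2.97 to 3.50), the smallest fold of the 9. Rcvrn had 6.51 in light-damaged and 26.7 in control microglia, 4.10-fold lower (3.49 to 4.82). The interval of Sag lies below those of every transducin gene and Pde6g, while that of Rcvrn overlaps most of them.

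Of the transducin genes, Gnat1 had 9.26 CPM in light-damaged and 48.8 in control microglia, 5.27-fold lower (4.63 to 6.01). Gngt1 had 15.7 in light-damaged and 86.9 in control microglia, 5.55-fold lower (5.03 to 6.13), the largest fold. The transducin partner Pdc had 8.12 and 41.5 in the same order, 5.11-fold lower (4.45 to 5.89). The intervals of these 3 folds and that of Pde6g overlap. Pde6g had 11.0 CPM in light-damaged and 58.5 in control microglia, 5.30-fold lower (4.71 to 5.98).

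The 2 disc-rim genes had folds of unlike size. Prph2 had 5.99 CPM in light-damaged and 32.3 in control microglia, 5.38-fold lower (4.59 to 6.34). Rom1 had 11.1 in light-damaged and 41.6 in control microglia, 3.76-fold lower (3.32 to 4.26), and the intervals of these 2 folds do not overlap. Nrl, the scarcest member, had 2.41 in light-damaged and 11.1 in control microglia, 4.61-fold lower (3.56 to 6.03).

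Of the 9 members, 8 reached 20 CPM in at least 1 library, 7 of them in the control library alone, so those 7 could only be lower. All 8 were over 1.5 times lower in light-damaged microglia, where 6.77% of the 5213 genes at that level were lower and 5.45% higher by as much. Without a minimum level, 9 of 9 were lower by that much, against 26.4% of 17263 genes lower and 8.9% higher. The median log2 ratio was -2.38 over the 8 members and -0.02 over all genes at that level. Of the 26 other rod genes on a fixed list, 24 were over 1.5 times lower in light-damaged microglia and 0 higher, and their summed level was 3.54-fold lower. In the same comparison the summed bipolar cell genes were 2.23-fold lower, Müller glia genes 1.32-fold lower and cone genes 1.25-fold lower. Most of the UMIs of the last 2 lists came from Glul, at 612 CPM in light-damaged and 804 in control microglia, and Gngt2, at 297 and 357 CPM, each seen in most microglia. Within the rod list, Guca1a differed little between libraries in microglia without a member UMI, at 0.400 per 10000 in light-damaged and 0.438 in control ones.

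Sag was seen in more light-damaged microglia than any other member, and Gngt1 in more control microglia. Sag was seen in 10.9% of light-damaged and 21% of control microglia, and Gngt1 in 4.49% and 22.2% in the same order. For Gnat1, Pdc, Pde6g, Prph2, Rom1, Rcvrn and Nrl the shares ranged from 1.10% to 5.14% in the light-damaged and from 3.75% to 18.1% in the control library. These shares are not corrected for depth, which had a median of 6874 UMIs in light-damaged and 4833 in control microglia.

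**Figure D1:**
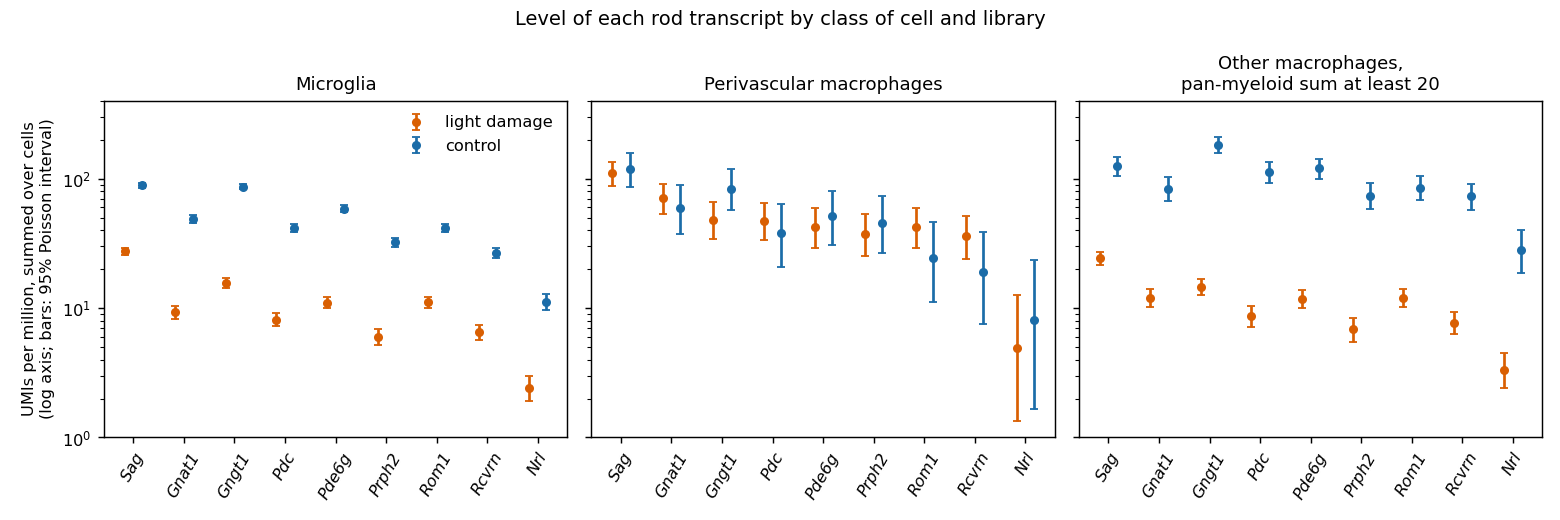
CPM of each rod transcript (log axis, 95% Poisson bars) in 3 classes of cell, light-damaged library in orange and left of the control library in blue. Light-damaged values lie below control values for all 9 genes in microglia and in other macrophages, while in perivascular macrophages the bars of most genes overlap.

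Perivascular macrophages did not show that gap. Their 9 members summed to 439 CPM (394 to 487) in the light-damaged library and 447 (382 to 521) in the control library, a ratio of 0.98 (0.813 to 1.19). This ratio rests on 354 UMIs in 85 light-damaged cells and 166 UMIs in 53 control cells. Its interval does not reach the ratio in microglia, but it holds counting error alone. The variance over the mean of the member UMIs in these cells was 3.70 in the light-damaged and 3.94 in the control library. The interval is therefore too narrow, and the difference between the classes was not tested. Sag had 110 CPM in light-damaged and 119 in control perivascular macrophages, a ratio of 0.93 (0.641 to 1.37), and 1 control cell held 22 of the 44 control UMIs of Sag.

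Of 8 measured members, 1 was over 1.5 times lower and 2 were over 1.5 times higher in light-damaged perivascular macrophages. Of all 4940 genes at that level, 16.2% were lower and 21% higher by as much. With no minimum, 2 of 9 were lower and 2 higher, against 32.8% and 17.9% of 12391 genes. The lower one was Gngt1, with 48.3 CPM in light-damaged and 83.6 in control cells, a ratio of 0.578 (0.352 to 0.959). The higher ones were Rom1, at 42.1 in light-damaged and 24.3 in control cells, and Rcvrn, at 35.9 in light-damaged and 18.9 in control cells, and both their intervals include 1. The other 5 measured members, Sag, Gnat1, Pdc, Pde6g and Prph2, had ratios from 0.811 to 1.25. With the perivascular limit lowered to 5 and the microglia limit to 10 per 10000, the log2 ratio of the sum was -0.48 in place of -0.03, and Rom1 and Rcvrn turned to log2 ratios of -0.03 and -0.19. With the limits raised to 20 and 30 per 10000, Gngt1 turned to a log2 ratio of 0.74 and Rom1 to -0.29, so the direction of these 3 members depends on where the class is cut.

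Within the light-damaged library, perivascular macrophages carried 4.50 times the rod level of microglia (4.02 to 5.02). Within the control library this ratio was 1.03 (0.875 to 1.20). In the light-damaged library the ratio was 7.63-fold (5.65 to 10.1) for Gnat1, 6.20-fold (4.08 to 9.12) for Prph2, 5.80-fold (4.02 to 8.15) for Pdc and 5.52-fold (3.62 to 8.15) for Rcvrn. It was 4.01-fold (3.19 to 4.99) for Sag, 3.82-fold (2.61 to 5.43) for Pde6g, 3.80-fold (2.60 to 5.40) for Rom1 and 3.09-fold (2.17 to 4.27) for Gngt1. For Nrl, with 4 UMIs in these macrophages, it was 2.05 (0.547 to 5.45). The 26 other rod genes were 3.74 times (3.35 to 4.15) as high in perivascular macrophages as in microglia of the light-damaged library and 1.33 times (1.15 to 1.52) in the control library. Of the other retinal cell lists in the light-damaged library, bipolar cell genes were at 1.61 (1.18 to 2.15), Müller glia genes at 0.76 (0.687 to 0.839) and cone genes at 0.606 (0.511 to 0.713). In microglia the last 2 lists were mostly Glul and Gngt2, each seen in most microglia. In light-damaged microglia without a member UMI, Prkca gave 429 and Pcp4 231 of the 848 bipolar UMIs. These ratios therefore may not measure material of those retinal cells. The sparse ganglion cell list was at 2.71 (1.27 to 5.11) and the amacrine cell list at 2.14 (0.843 to 4.51), both with intervals that overlap that of the rod members. Pigment epithelium genes were at 87.2 (12.5 to 964), from 4 UMIs in perivascular macrophages and 2 in microglia. In the control library the ganglion and amacrine cell lists were at 3.56 (1.59 to 6.996) and 3.85 (1.50 to 8.28). The depth of these cells was also higher, with a median of 9382 UMIs in perivascular macrophages and 6874 in microglia of that library, and its part in the result was not tested.

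In other macrophages with myeloid genes all members were again lower in the light-damaged library. Their members summed to 101 CPM (95.7 to 107) in the light-damaged library and 884 (828 to 943) in the control library, 8.75-fold lower (8.03 to 9.53). All 9 members were over 1.5 times lower, against 18.3% of 5156 genes at that level lower and 33.5% higher, with folds from 5.17 for Sag to 12.9 for Pdc. Of these, 8 reached 20 CPM in the control library alone. With no minimum the background was 42.5% lower and 22.8% higher. The control value leaned on few cells, since 11 of 169 control cells held 581 of the 920 UMIs. With the low-myeloid barcodes included, the fold was 42.9. All 9 members were then lower as well, against 28.1% of genes at 20 CPM lower and 22.9% higher, or 51.2% lower and 14.9% higher with no minimum.

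**Figure D2:**
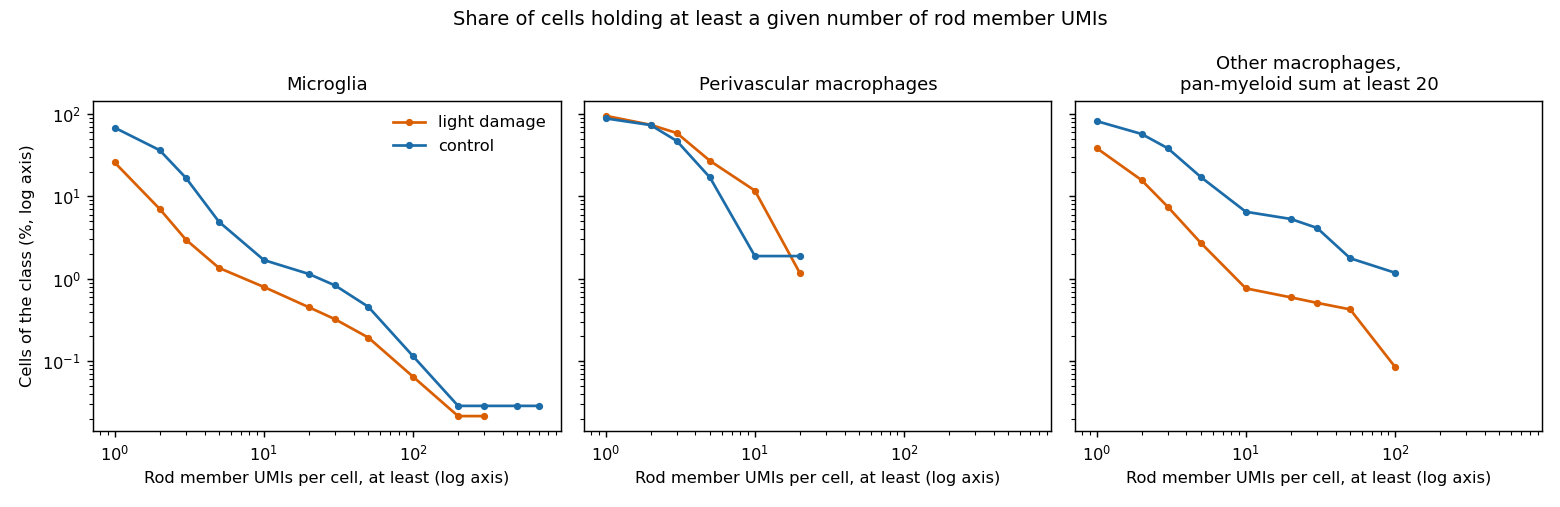
Share of cells (percent, log axis) that held at least the number of rod member UMIs on the horizontal log axis, light-damaged library in orange and control library in blue. In microglia and other macrophages the light-damaged curve lies below the control curve and both have a long tail; in perivascular macrophages the richest cell held 20 UMIs in the light-damaged and 24 in the control library.

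The spread over single microglia had 2 parts, a low level in many cells and a high level in few. Any member UMI was seen in 25.8% of light-damaged microglia (24.6 to 27.1) and 68.4% of control microglia (66.8 to 69.9). Thinned to 2500 UMIs per cell, which left out 342 control microglia and 0 light-damaged ones, the shares were 11.4% (10.5 to 12.4) and 47.8% (46.0 to 49.5) in the same order. Thinned perivascular macrophages showed a member UMI in 61.2% of light-damaged cells (50 to 71.6) and 53.1% of control cells (38.3 to 67.5). Other macrophages with myeloid genes showed one in 15.0% of light-damaged cells (13 to 17.2) and 58.0% of control cells (49.7 to 66.0).

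Had the same UMIs been shared out in proportion to depth, 49.8% of light-damaged and 84.0% of control microglia would have had one. The variance over the mean of the member UMIs per microglia was 91.6 in the light-damaged library and 89.0 in the control library, where sharing by depth alone would give 1.16 and 1.37. Those values rest much on 1 cell in each library. The richest light-damaged microglia held 469 member UMIs and the richest control microglia 728, the next held 160 in either library, and without these cells the ratios were 32.1 and 21.3. Both cells lay just past the microglia limit, with marker sums of 21.2 in the light-damaged and 20.9 in the control cell.

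Rod-rich microglia, with at least 10 member UMIs, were 37 of 4653 (0.795%, 0.560 to 1.09) in the light-damaged library and 59 of 3497 (1.69%, 1.29 to 2.17) in the control library. They held 1769 of 3434 member UMIs in light-damaged microglia and 3009 of 7556 in control microglia. Near that limit, 26 light-damaged and 113 control microglia had 5 to 9 member UMIs, and 16 and 19 in the same order had 10 to 19. The richest 10% of microglia held 78.5% of member UMIs (77.1 to 79.9) in the light-damaged library and 57.6% (56.5 to 58.7) in the control library, though they held 14.8% and 13.1% of all UMIs. Sparse counts raise such shares even under an even spread, the more so the lower the mean. The mean per cell was 0.738 in light-damaged and 2.16 in control microglia, and the share under an even spread was not calculated. In perivascular macrophages the richest 10% held 30.8% of member UMIs in the light-damaged library and 31.9% in the control library, with a variance over the mean of 3.70 and 3.94.

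Without the rod-rich cells the variance over the mean of microglia lay nearer that of an even spread, in part because the cut takes out the highest counts. The variance over the mean was 1.76 in light-damaged microglia, where an even spread gives 1.08, and 1.50 in control microglia, where it gives 1.22. A member UMI was seen in 25.2% of these light-damaged cells, against 29.4% under an even spread, and in 67.8% of these control cells, against 69.7%. In perivascular macrophages under 10 member UMIs, the variance over the mean was 1.51 in the light-damaged and 1.42 in the control library, against 1.50 and 1.39 for an even spread. Over all perivascular macrophages it was 3.70 and 3.94, against 1.73 and 1.44. The cells were cut on the count that is measured and the even spread was not cut, so closeness to it cannot show that the low level was even.

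The low level rose with depth by less than in proportion. In light-damaged microglia under 10 member UMIs, the mean was 0.259 member UMIs in cells of 3000 to 5000 UMIs, 0.313 at 5000 to 8000 and 0.491 at 8000 and over. On the CPM scale the same cells had 63.4, 48.0 and 43.8. In control microglia the means were 0.796, 1.18, 1.55 and 2.13 from under 3000 UMIs upward, and the levels 347, 292, 251 and 226 CPM. In both libraries the deeper of these cells thus had more member UMIs each and a lower CPM. The decline does not hold with all rod-rich cells included. These were 1.02% of light-damaged and 3.38% of control microglia of 8000 UMIs and over, a larger share than in any shallower bin. Over all microglia the levels were 90.6, 86.0 and 108 CPM in the light-damaged library and 613, 414, 367 and 641 CPM in the control library, highest in the deepest cells of each. Those deepest bins include the richest cell of each library. It held 469 member UMIs among 14159 UMIs in the light-damaged and 728 among 12948 in the control library. The levels without that cell were not calculated, so how far the highest values rest on 1 cell was not tested.

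**Figure D3:**
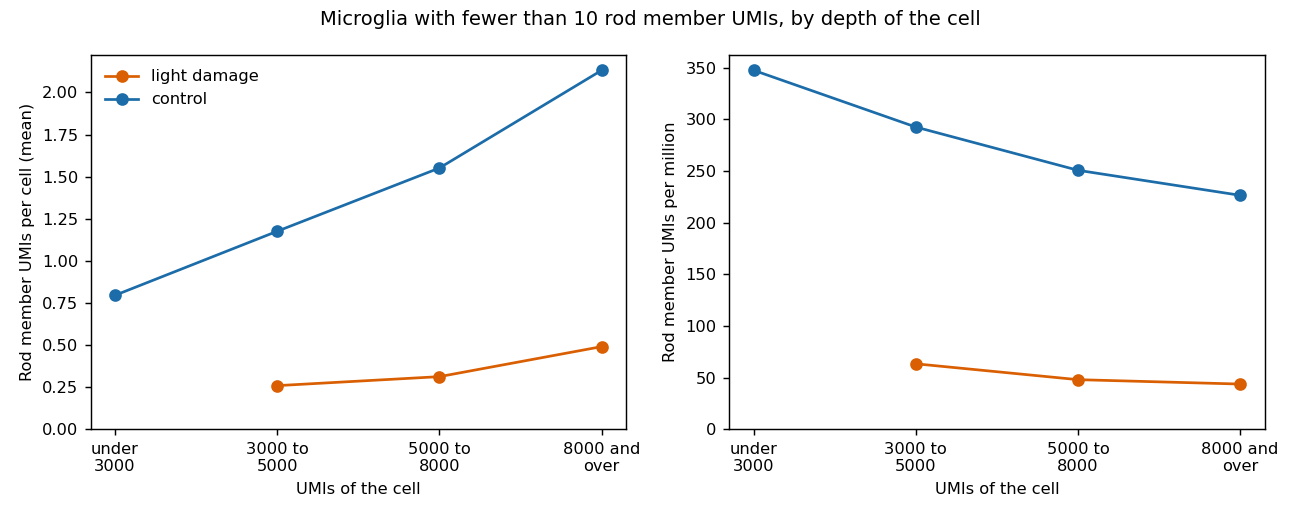
Microglia with fewer than 10 rod member UMIs by depth of the cell: mean member UMIs per cell on the left, member CPM on the right, light-damaged library in orange and control library in blue. The mean rises with depth to 0.491 in light-damaged and 2.13 in control cells of 8000 UMIs and over, while the CPM declines to 43.8 and 226.

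The share of Sag in the member UMIs differed between sets of cells. In the low-myeloid barcodes Sag was 13.6% (12.2 to 15.1) of member UMIs in the light-damaged library and 9.28% (8.81 to 9.76) in the control library. In microglia it was 28.2% (26.7 to 29.7) in the light-damaged and 20.3% (19.4 to 21.3) in the control library. By amount per cell, Sag made 34.2%, 52.4% and 18.3% of member UMIs in light-damaged microglia with 1 to 2, 3 to 9 and 10 or more, and 17.1%, 29.1% and 17.0% in control microglia. The share of Sag was thus highest at 3 to 9 UMIs in both libraries.

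Set against Gngt1, whose promoter shares the Crx core shown above, Sag had 5.02 UMIs per Gngt1 UMI (3.61 to 7.14) in light-damaged microglia with 3 to 9 member UMIs and 1.70 (1.49 to 1.95) in such control microglia. In rod-rich microglia the ratio was 0.913 (0.783 to 1.06) in the light-damaged and 0.76 (0.676 to 0.854) in the control library. In low-myeloid barcodes it was 0.56 (0.484 to 0.647) in the light-damaged and 0.357 (0.335 to 0.38) in the control library. Perivascular macrophages had 2.28 (1.55 to 3.42) in the light-damaged and 1.42 (0.876 to 2.32) in the control library. In both libraries the interval for microglia with 3 to 9 member UMIs lies above those for rod-rich microglia and for low-myeloid barcodes. The number of UMIs that sets these bins includes Sag itself, so the ratios are a description.

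**Figure D4:**
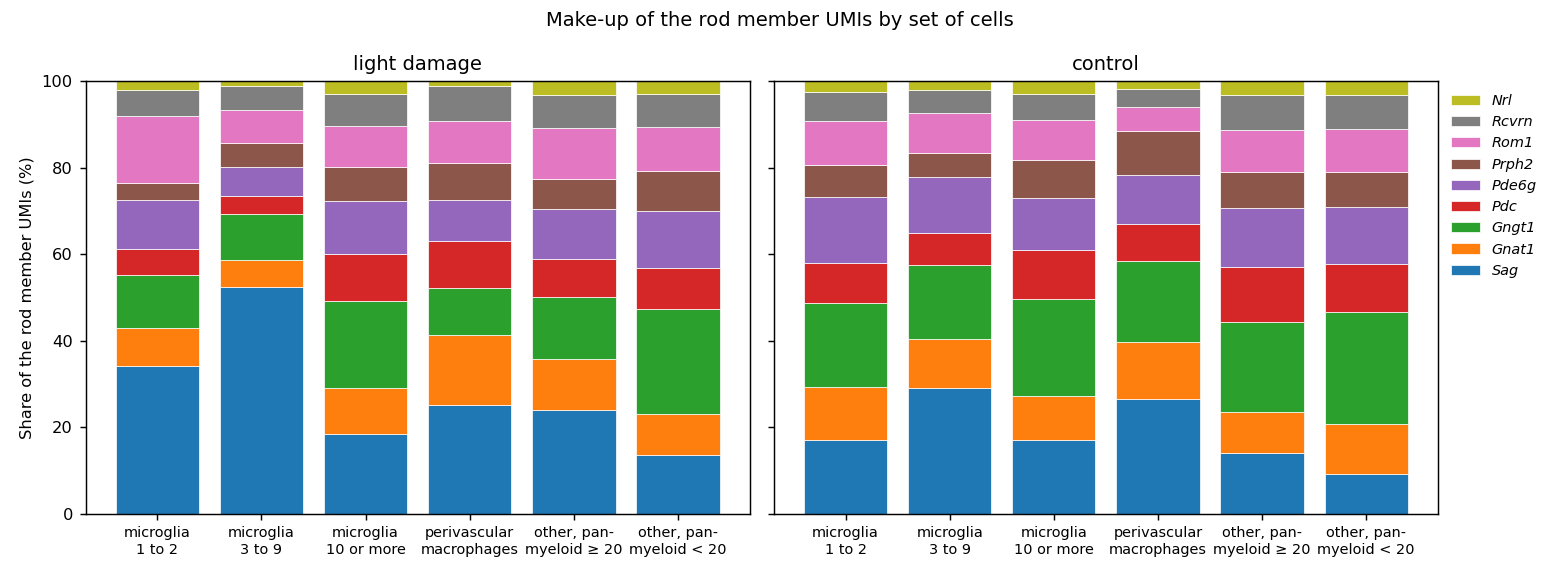
Share of each gene in the rod member UMIs (percent, stacked to 100) for microglia by member UMIs per cell and for the other sets of cells, light-damaged library on the left and control library on the right. Sag is 52.4% of the UMIs in light-damaged and 29.1% in control microglia with 3 to 9 member UMIs, and 13.6% and 9.28% in the barcodes with a pan-myeloid sum under 20.

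Some microglia held Sag almost alone. A set chosen after its values were seen, microglia with at least 4 UMIs of 1 member that made up at least 80% of their member UMIs, was counted for each of the 9 genes. For Sag it held 20 light-damaged microglia (0.43% of the class) and 41 control microglia (1.17%). For Gngt1 it held 0 light-damaged and 2 control cells, and for each of the other 7 members it held 0 in both libraries. The 20 light-damaged cells carried 130 Sag UMIs and 1 UMI of the other 8 members, and the 41 control cells carried 322 and 37. The most in 1 cell was 16 in the light-damaged and 29 in the control library. These cells held 13.4% of all Sag UMIs of light-damaged microglia and 21% of those of control microglia. Whether these Sag UMIs come from rods cannot be told from the counts, which bears on every Sag level and on the member sums given for microglia.

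Other rod genes were at the level of rod-free cells there. The 26 other rod genes had 71.3 CPM (36.8 to 125) in light-damaged Sag-led cells, 5308 (5050 to 5574) in light-damaged rod-rich cells that were not Sag-led, and 74.3 (71.0 to 77.7) in light-damaged microglia without any member UMI. In the control library the same 3 values were 297 (230 to 378), 9974 (9618 to 10339) and 258 (243 to 273). These rest on 12 UMIs in the light-damaged and 67 in the control Sag-led cells. In microglia without a member UMI, Guca1a alone gave 1000 of the 1857 UMIs of the list in the light-damaged and 208 of 1223 in the control library. The comparison was not made without Guca1a. Beside this, the microglia marker sum had a median of 37.9 per 10000 in light-damaged Sag-led cells and 41.6 in light-damaged cells without a member UMI, and 62.4 and 67.5 in the same order in the control library. In perivascular macrophages 0 light-damaged cells and 1 control cell were led by Sag, and in other macrophages with myeloid genes 4 and 0.

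**Figure D5:**
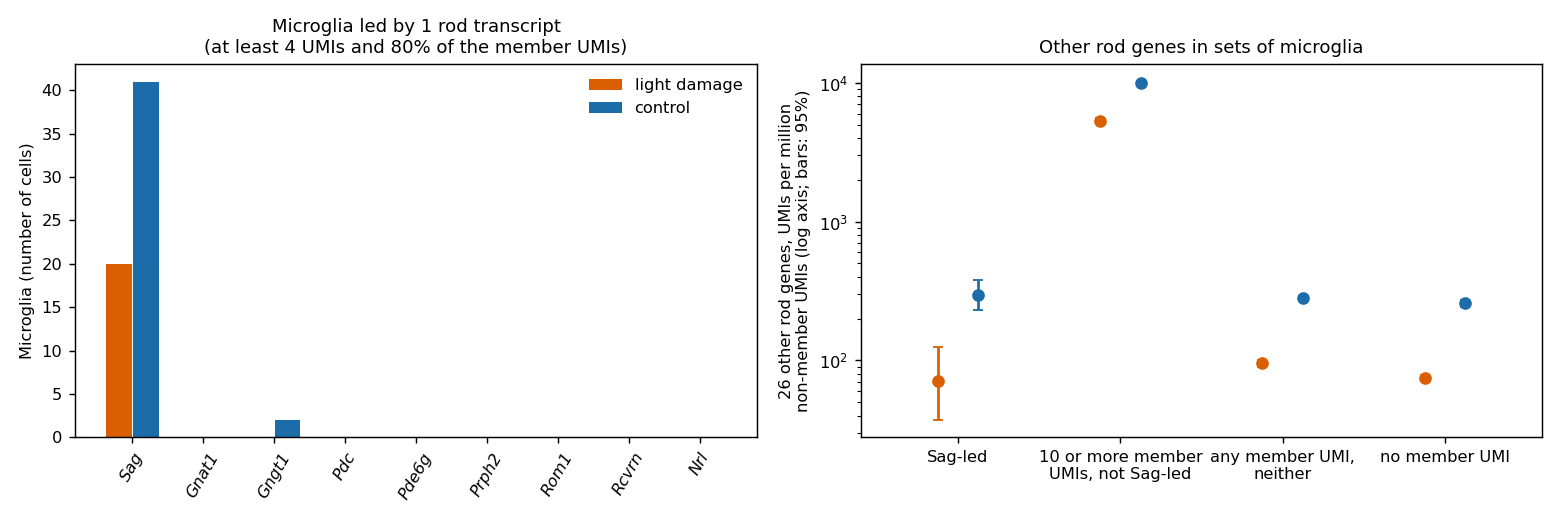
Left, number of microglia led by 1 rod transcript, light-damaged bars in orange left of control bars in blue; Sag leads 20 and 41 cells and no other gene leads more than 2. Right, CPM of the 26 other rod genes (log axis, 95% bars) in sets of microglia; Sag-led cells sit at the level of cells with no member UMI, at 71.3 in the light-damaged and 297 in the control library.

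Each member apart from Sag had a lower variance over the mean than Sag in microglia with few UMIs of the remaining members. In microglia with fewer than 10 UMIs of the other 8 members, the variance over the mean of Sag was 2.67 in the light-damaged and 4.71 in the control library. For the other 8 members it lay between 1.05 and 1.36 in light-damaged cells and between 1.01 and 1.09 in control cells. The set used for Sag keeps cells with up to 16 Sag UMIs in the light-damaged and 29 in the control library. In microglia under 10 UMIs of all 9 members, Sag was at 1.76 in the light-damaged and 2.05 in the control library. The sum of the other 8 was then at 1.52 and 1.25, against 1.05 and 1.17 for an even spread. Leaving Sag out, the summed members were lower in light-damaged microglia by a log2 ratio of -2.31 in place of -2.16.

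Most rod-rich microglia held the members together, with 5 of 37 light-damaged and 7 of 59 control ones led by Sag. All 15 light-damaged microglia with 30 or more member UMIs had each of the 9 genes, as did 16 of 29 such control microglia. The 26 other rod genes, which did not choose these cells, were 65.5 times (61.2 to 70.0) as high in light-damaged rod-rich microglia as in light-damaged microglia without a member UMI, and 34.4 times (32.1 to 36.8) in the control library. Guca1a, which gave most of the list's UMIs in light-damaged cells without a member UMI, was at only 5.25 times (4.05 to 6.70) in that library.

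By the fixed measure of likeness, the level in rod-rich over that in rod-free microglia, genes of phototransduction and the rod outer segment stood among the 10 highest in both libraries. In the light-damaged library these included Rp1, an axoneme protein, at 217-fold (40 against 14 UMIs), the rod channel subunit Cnga1 at 190-fold, the phosphodiesterase subunits Pde6b at 152-fold and Pde6a at 148-fold, the cyclase activator Guca1b at 133-fold and Tulp1 at 125-fold. In the control library they included Cnga1 at 101-fold, Rp1 at 73.9-fold, Pde6b at 57.3-fold, the rod factor Nr2e3 at 47.1-fold, Tulp1 at 44.3-fold, the cone opsin Opn1sw at 41.3-fold and Aipl1 at 40.0-fold. Cnga1, Rp1, Pde6b and Tulp1 were in both sets of 10. The chemokine Ccl8, also among the 10 in the light-damaged library, owed its 173-fold to 41 UMIs in 1 cell, and 33 of the 88 Opn1sw UMIs of control microglia were in 1 cell. At the other end, 617 genes in the light-damaged and 21 in the control library tied at 0 UMIs in the rod-rich cells, so the 5 lowest are not named.

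Microglia markers were a little lower in rod-rich than in rod-free microglia. Their microglia marker sum had a median of 36.7 per 10000 in light-damaged rod-rich and 41.6 in rod-free cells, and 57.8 and 67.5 in the same order in the control library. Median UMIs outside the members were 7267 in light-damaged rod-rich and 6724 in rod-free cells, and 5558 and 4124 in the control library, and the part of depth in these sets was not tested. Mitochondrial UMIs had a median of 2.62% in light-damaged rod-rich and 2.59% in rod-free cells, and 1.97% and 1.52% in control cells. Marker genes of perivascular macrophages summed to 0.609 per 10000 in light-damaged rod-rich and 0.05 in rod-free cells, from 20 and 125 UMIs, and to 0.536 and 0.0611 in control cells, from 18 and 29. With a limit of 20 member UMIs, light-damaged rod-rich cells had 0 UMIs of these markers. Control ones then had 4, at 3.11 times (0.795 to 8.87) the rod-free level. The 8 genes of monocytes and lesion macrophages were at 1.92 times (1.42 to 2.53) the rod-free level in light-damaged rod-rich cells, from 51 and 2024 UMIs, and at 2.45 times (1.37 to 4.13) in control ones, from 17 and 98. Ms4a7 alone gave 28 of those 51 UMIs, at 4.89 times (3.21 to 7.16) the rod-free level, and 11 of those 17, at 2.55 times (1.21 to 4.88). In light-damaged rod-rich cells Lgals3 had 9 UMIs, Fn1 8, Gpnmb 4 and Ccr2 1, all with intervals that include 1, and Plac8 had 0. With a limit of 20 member UMIs the summed ratios of the 8 genes were 1.10 (0.651 to 1.74) and 1.84 (0.774 to 3.78). The part of both marker lists in the rod level was not tested.

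Of 26 genes of engulfment and its lysosomes on a fixed list, 25 could be measured in the light-damaged library, with at least 50 UMIs over both sets. In rod-rich cells 1 was over 1.5 times higher and 0 lower, against 17.8% of 10088 genes higher and 18.8% lower, and the summed level of the list was 1.00 times that of rod-free cells (0.99 to 1.02). The receptors Mertk and Axl, the complement genes C1qa to C1qc and the lysosomal proteases Ctsb and Ctsd belong to this list. The background includes genes with as few as 50 UMIs over both sets, which pass 1.5-fold by counting error more easily than the abundant genes of the list. The shares were not matched for abundance, so a lower share in the list is not a result about engulfment genes. In the control library 1 of 22 was higher and 1 lower, against 16.2% of 7075 genes higher and 12.1% lower, with a summed level of 0.861 (0.847 to 0.876). The summed level moved with the limit that defines rod-rich cells. At 5 and at 20 member UMIs it was 1.14 (1.13 to 1.16) and 0.871 (0.855 to 0.887) in the light-damaged library, on either side of 1, and 0.935 (0.927 to 0.945) and 0.736 (0.719 to 0.752) in the control library. The 7 general myeloid genes also declined, to 0.983, 0.938 and 0.897 at limits of 5, 10 and 20 in the light-damaged library. In the control library they were at 0.934, 0.882 and 0.817, so a decline was not particular to engulfment genes. At the limit of 10, Apoe gave 4358 of the 20979 UMIs of the engulfment list in light-damaged rod-rich cells, at 1.36 times the rod-free level. The median log2 ratio of the list was -0.03 in the light-damaged and -0.24 in the control library, beside 0.05 and 0.03 over all genes. Bipolar cell genes summed to 1.35 times (0.75 to 2.23) the rod-free level in light-damaged rod-rich cells and 2.48 times (1.84 to 3.29) in control ones. The corresponding values for Müller glia genes were 0.976 (0.848 to 1.12) and 1.29 (1.15 to 1.43).

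Of the barcodes with the highest Scrublet doublet scores, 370 light-damaged and 125 control, 0 were rod-rich microglia, while they included 5.72% of all light-damaged and 3.43% of all control microglia. At such shares only a few of the 37 and 59 rod-rich microglia would have been among them. Scrublet builds its doublets from the barcodes of the library, where low-myeloid barcodes were only 25 light-damaged and 76 control. A microglia joined to a rod could thus score low, and whether rod-rich cells are such doublets was not tested.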

How the data were processed

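Single-cell RNA sequencing of sorted Cx3cr1-YFP-positive retinal cells gave 1 library for each of 2 groups. The authors deposited raw UMI counts per gene and barcode, whole numbers with no normalization; Cell Ranger 2.0.0 and mm10 were used per the submitters' processing notes; the rest is not given in the sources used here. Whether intronic or antisense reads were counted, and how far empty droplets were filtered, is therefore unknown, and both bear on free RNA. The gene and barcode tables hold names alone.

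A barcode was kept if it had 300 or more genes and no more than 10% mitochondrial UMIs. No doublets were removed in the reported values (removing the highest scores was an alternative); Scrublet's automatic threshold marked 1 light-damaged and 0 control barcodes. Cells with a microglia sum of 10 to under 20, or with both sums high, were kept apart. UMIs were summed per class and library and scaled to 1000000 UMIs of the class (CPM). Ratios have exact Poisson intervals and shares exact Clopper-Pearson intervals at 95%, for counting error only. An even spread means Poisson counts in proportion to each cell's UMIs. The named genes are all 9 members and, by likeness, the 10 highest genes with at least 50 UMIs, not all of which are reported here; a gene at 0 was floored at 3 counts. The members, lists and limits were chosen with earlier results of these data known. Python 3.11.15, numpy 2.4.6, scipy 1.17.1, pandas 2.3.3, scanpy 1.11.5 and matplotlib 3.10.9 were used, and the functions were tested on simulated data. Depth was 58187149 UMIs in the light-damaged and 20056338 in the control library.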

Additional observations from a re-analysis of the deposited data

Results flagged for a closer look

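Rom1 and Rcvrn went opposite ways in perivascular macrophages and in microglia, each by over 1.5-fold. Rom1 was at a ratio of 1.74 (0.816 to 4.12), light-damaged over control, in perivascular macrophages and 0.266 (0.235 to 0.302) in microglia. Rcvrn was at 1.90 (0.816 to 5.15) in perivascular macrophages and 0.244 (0.207 to 0.286) in microglia. The perivascular values rest on 34 light-damaged and 9 control UMIs of Rom1 and on 29 and 7 of Rcvrn, and the difference between the classes was not tested. The opposite direction is lost for Rom1 under both other class limits, at log2 ratios of -0.29 with the stricter and -0.028 with the looser ones in perivascular macrophages, and for Rcvrn under the looser ones, at -0.19.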

How the results depend on the processing

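The fall of the members in light-damaged microglia kept its direction under all 11 settings tried for the sum, and all 89 single-member values stayed below 0, from -3.12 to -1.58. From a log2 ratio of -2.16, the sum moved to -1.95 with a limit of 500 genes and 5% mitochondrial UMIs, -2.24 and -2.28 with stricter and looser class limits, -2.09 without Gngt1, the member with the most UMIs over both libraries, -2.49 without rod-rich cells, -2.09 with median-of-ratios size factors, -2.31 as a mean over cells and -2.31 without Sag. For perivascular macrophages the sum moved with the looser limits alone, to -0.48, and was 0.17 with the stricter ones; with the stricter limits Gngt1 turned to 0.74 and Rom1 to -0.29, and with the looser ones Rom1 to -0.028 and Rcvrn to -0.19. For other macrophages with low-myeloid barcodes included, -5.42 moved to -4.45 with the 500-gene filter, -5.05 with no filter and -5.00 with at least 3000 UMIs. It moved to -5.82 under both other class limits, which cut this class alike and so are 1 check. It was -5.33 without Gngt1, -2.54 without cells of 10 or more member UMIs, -5.09 with size factors and -4.92 as a mean over cells. It was -5.56 without Sag and -3.13 without low-myeloid barcodes. The size factors set the median of all genes, at -0.33 in this class, to 0. The difference of -36.4 percentage points in microglia with a member UMI moved to -31.2 without Gngt1, -40.7 at 3000 UMIs and -42.5 unthinned. The share held by the richest 10% moved to 72.0% in the light-damaged library under the stricter limits and 57.8% without rod-rich cells, and in the control library to 51.5% with the 500-gene filter, 49.2% and 60.1% under the stricter and looser limits and 33.0% without rod-rich cells. The variance over the mean moved to 19.7 under the stricter limits, 60.3 without Gngt1 and 1.76 without rod-rich cells in the light-damaged library, and to 20.4 with the 500-gene filter, 15.4 under the stricter limits and 1.50 without rod-rich cells in the control library. The richest cells had marker sums of 21.2 and 20.9 and the control one 6.76% mitochondrial UMIs, so these filters take them out; other causes were not tested. With a limit of 5 or 20 member UMIs in place of 10, rod-rich microglia were 1.35% or 0.451% of light-damaged and 4.92% or 1.14% of control microglia. Leaving out Sag and the low-myeloid barcodes were chosen after seeing the data. No paired analysis was possible because each group is 1 library. The perivascular values rest on 354 light-damaged and 166 control UMIs.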

Other observations

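Cells between the classes, with a microglia sum of 10 to under 20 and a low perivascular sum, held 89.5 member CPM (83.4 to 96.0) in 857 light-damaged cells and 1050 (982 to 1120) in 147 control cells. In the control library 11 of those 147 cells held 673 of the 903 UMIs.

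The barcodes that did not pass the filter on genes and mitochondrial UMIs were rich in the same transcripts, with 1288 member UMIs in 22 light-damaged barcodes and 1518 in 55 control barcodes. One light-damaged barcode held 1245 of them and 1 control barcode 1023.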
